A study of Mus musculus with 4 samples.

Results

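A set of 9 genes of the T and NK lymphocyte lineages was followed in ILC2 (innate lymphoid cells of the type 2 class) that had been sorted out of adipose tissue from mice. The genes were taken by symbol, and 7 of the 9 had a row among the 10941 genes of the deposited table: Cd3g, Cd3e, Lck, Lat, Ikzf2, Klrb1b and Thy1. Cd3d and Cd247 were not analysed here. All 7 passed the filter on low counts, which left 8753 genes for testing.

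The series holds 4 RNA-seq libraries, 2 whose library names begin with KO and 2 whose names begin with WT. The KO-named libraries have sample titles with the genotype Rptor+/+, and the WT-named libraries have titles with Rptorf/f, so title and library name disagree on the genotype of every sample. Groups are therefore called by library name, and no direction below can be tied to a genotype. All 4 titles carry Il5RFP-cre (R5/+), a red fluorescent reporter and Cre recombinase at the Il5 locus, so both groups have the Cre allele and deletion is limited to cells that have switched on Il5. The product of Rptor is Raptor, without which the kinase complex mTORC1 does not form. The sources used here do not give the age and sex of the mice or the sorting gate. They also do not say whether 2 libraries of a group are 2 animals, so a p-value covers the spread between these 4 samples alone, and that spread may be technical.

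T cells recognise antigen through a receptor whose variable chains signal through the invariant CD3 chains. The kinase Lck phosphorylates the CD3 chains, Zap70 docks on them, and the adaptor Lat then gathers the enzymes that start calcium and Ras signalling. ILC2 arise from lymphoid progenitors close to those of T cells and carry surface Thy1, but they lack a rearranged antigen receptor, which is why sorting usually gates out cells with surface CD3. NK cells share several of the signalling proteins and are marked by lectin-like receptors of the Klr family.

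Totals were 15258779 and 18856226 counts in KO-named replicates 1 and 3, and 18151495 and 17868383 counts in WT-named replicates 1 and 3, numbered as in the table's columns. No library name carries the number 3, so the columns numbered 3 were tied to a group and not to a listed sample. Rptor itself had 0.971 and 33.9 CPM in KO-named replicates 1 and 3, against 14.5 and 76.8 CPM in WT-named replicates 1 and 3, where CPM is the count scaled to a common library total with TMM factors for composition. The groups overlapped, and the floxed gene did not settle which label is right. Genes of ILC2 identity, 18 of 19 listed with a row, summed to 20174 and 16131 CPM in KO-named replicates 1 and 3. In WT-named replicates 1 and 3 they summed to 16038 and 20612 CPM, so these genes were abundant in each library. Mast cell genes were abundant too, summing to 10953 and 8681 CPM in the KO-named and 8468 and 7082 CPM in the WT-named libraries.

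Each of the 7 genes was detected in the WT-named libraries, but they differed widely in level. Levels between genes are compared as CPM per kilobase of the longest coding transcript in GENCODE. Cd3g averaged 127 CPM per kilobase ± 39.7 in the KO-named and 163 ± 95.5 in the WT-named libraries (SD, n = 2 each). It stood between the 92.8 and 97.1 percentile of the 10619 genes with a length. Lat averaged 106 CPM per kilobase ± 19.0 in the KO-named and 105 ± 30.0 in the WT-named libraries (SD, n = 2 each), between the 92.4 and 95.2 percentile. Over all 4 libraries the order of mean CPM per kilobase was Cd3g at 145, Lat at 105, Thy1 at 32.3, Klrb1b at 22.6, Ikzf2 at 14.7, Cd3e at 3.07 and Lck at 2.28. Below Cd3g and Lat the order of means differed between the groups. In the KO-named libraries Thy1 at 53.2 CPM per kilobase came next, then Klrb1b at 12.6, Ikzf2 at 11.4, Lck at 0.796 and Cd3e at 0. In the WT-named libraries Klrb1b at 32.6 came next, then Ikzf2 at 18.0, Thy1 at 11.4, Cd3e at 6.13 and Lck at 3.77. Between neighbours in the order over all 4 libraries the ranges overlapped, except at 2 steps. Lat had 83.5 CPM per kilobase or more in every library and Thy1 80.6 or less, and Ikzf2 had 10.2 or more and Cd3e 8.15 or less. Cd3g was above Lat per kilobase in each library, by 1.30 and 1.07 times in KO-named replicates 1 and 3 and by 1.83 and 1.14 times in WT-named replicates 1 and 3.

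**Figure D1:**
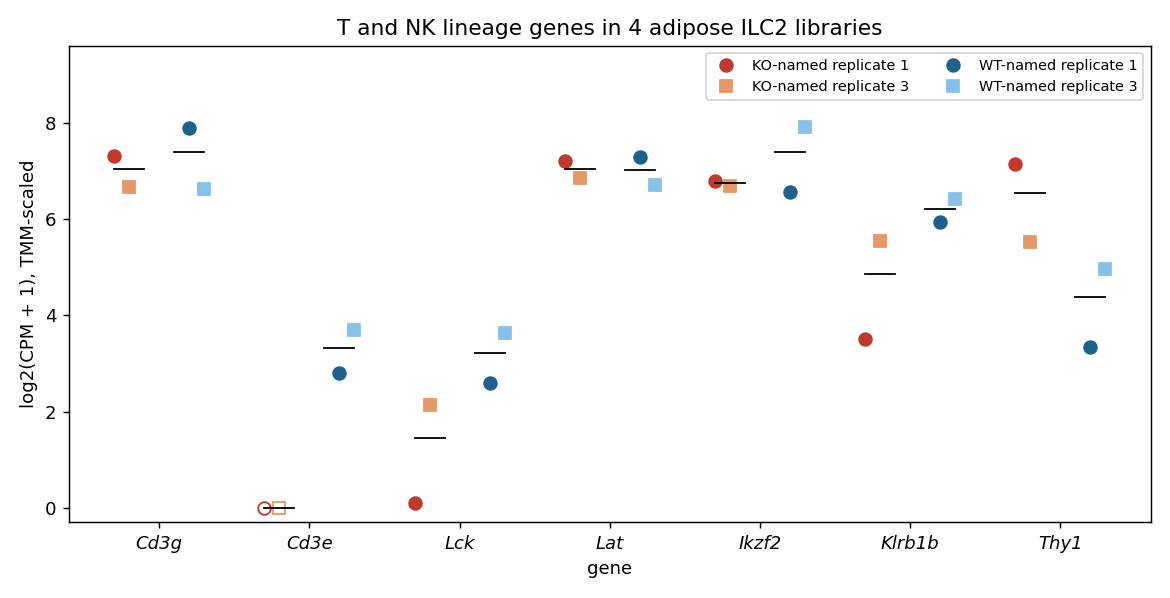
Level of each gene as log2(CPM + 1) (vertical axis) in the 2 KO-named and the 2 WT-named libraries. Lines mark the level of each group's mean CPM and open symbols a count of 0. Cd3e has no read in either KO-named library, Lck, Klrb1b and Thy1 separate the groups, and Cd3g, Lat and Ikzf2 overlap.

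None of the 7 genes passed edgeR's quasi-likelihood test at an adjusted p of 0.05, and neither did any other of the 8753 genes tested (0%). At an unadjusted p under 0.05 there was 1 of the 7, Cd3e, beside 9.81% of all genes tested. Cd3e, Lck and Klrb1b were lower in each KO-named library than in either WT-named one, which is 42.9% of the 7 genes beside 22.1% of all genes tested. Thy1 was the 1 gene with higher levels in each KO-named library than in either WT-named one, which is 14.3% beside 17.8% of all. DESeq2 called 1 of the 7, Cd3e, as lower, where it called 3.13% of all genes as lower, and limma-voom called Cd3e as lower beside 1.78% of all. With 7 genes and 2 libraries a group, these shares describe the genes and are no test of them. These are bulk libraries, in which fewer cells of a type and less RNA per cell cannot be told apart.

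Among the CD3 chains, Cd3g was high in every library while Cd3e was scarce in the WT-named libraries and without a read in the KO-named ones. Cd3g encodes the gamma chain of the CD3 complex (Entrez 12502, chromosome 9, 44969572 to 44980431, minus strand). It had 159 and 101 CPM in KO-named replicates 1 and 3, against 236 and 97.5 CPM in WT-named replicates 1 and 3. WT-named replicate 1 was the highest and WT-named replicate 3 the lowest, so the groups overlapped fully. The log2 fold change was −0.36 (SE 0.68, edgeR adjusted p = 0.946). It was 0.39 without WT-named replicate 1 and lay between −0.80 and −0.071 without any other library.

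Cd3e encodes the epsilon chain, the partner with which the gamma and delta chains pair (Entrez 12501, chromosome 9, 44998735 to 45009663, minus strand). It had 0 and 0 reads in KO-named replicates 1 and 3, against 131 and 222 reads in WT-named replicates 1 and 3, or 6.02 and 11.9 CPM. A count of 0 allows up to 0.224 and 0.176 CPM in KO-named replicates 1 and 3, the level of 3 counts, for counting error only. Set against 3 counts over the group, Cd3e was lower by at least 88.6-fold in the KO-named libraries. This bound covers counting error only and leaves out the spread between libraries. Leaving out KO-named replicate 1 or 3 gave bounds of 49.6-fold and 39.0-fold, and leaving out WT-named replicate 1 or 3 gave 121-fold and 61.1-fold. The edgeR adjusted p was 0.433, while DESeq2 gave an adjusted p of 0.0397 and limma-voom 0.0358. Across the settings tried the adjusted p ran between 0.000235, by DESeq2 on all genes with a row, and 0.992, by edgeR without WT-named replicate 1. A complete absence of this kind was not limited to Cd3e. Of the 8753 genes tested, 43 (0.491%) had no read in either KO-named library and reads in both WT-named ones. Such genes, Cd3e among them, passed the low-count filter through the WT-named libraries alone, so this share depends on the filter. Cd3e was also chosen with earlier results of these data known. Its bounds and p-values therefore describe the gene and are no test of it.

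Cd3g and Cd3e were far from equal where both were detected. In CPM per kilobase, Cd3g was 56.0 times Cd3e in WT-named replicate 1 and 11.7 times in WT-named replicate 3. Summed over Cd3e and Cd3g, the CD3 chains had 159 and 101 CPM in KO-named replicates 1 and 3 and 242 and 109 CPM in WT-named replicates 1 and 3. The 2-sided exact permutation test over libraries gave p = 0.667 for that sum, where 2 against 2 libraries cannot go below 0.333.

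Both genes lie on the minus strand of chromosome 9 with 18303 bases between them. The 198 bases upstream of each gene are shown, from RefSeq on GRCm38.p6 (the assembly that mm10 names). Cd3e and Cd3g lie near each other yet stood far apart in level, and the part of these bases in that was not tested. The RefSeq promoter entry of Cd3e uses a start inside the gene, so 52 of its upstream bases were left out and Cd3g was cut to the same length. RefSeq promoter entries were found for 5 of the 7 genes. Capitals mark the E-box letters CANNTG, which read the same on both strands, the GATA letters AGATAA on either strand, and the RUNX letters TGTGGT on either strand.
Cd3e, chr9:45009664-45009861, minus strand: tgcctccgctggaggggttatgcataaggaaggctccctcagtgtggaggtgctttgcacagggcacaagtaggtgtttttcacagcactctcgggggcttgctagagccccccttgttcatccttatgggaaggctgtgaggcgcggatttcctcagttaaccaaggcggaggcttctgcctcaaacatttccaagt
Cd3g, chr9:44980432-44980629, minus strand: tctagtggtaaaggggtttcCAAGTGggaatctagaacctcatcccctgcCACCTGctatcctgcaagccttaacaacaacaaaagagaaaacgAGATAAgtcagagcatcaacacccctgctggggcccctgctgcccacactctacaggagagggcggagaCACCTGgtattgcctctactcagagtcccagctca

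The Cd3g stretch holds 3 matches to CANNTG and the Cd3e stretch none, where 57.8% of the 32851 stretches of this length next to a promoter entry's start hold at least 1. A CANNTG run that crosses the first base of Cd3e was not counted. The Cd3g stretch holds 1 match to AGATAA, the Cd3e stretch none, and 7.65% of all stretches hold one. Neither holds TGTGGT, which 11.1% of all do. The ETS core GGAA, on either strand and not capitalised, has 4 matches in the Cd3e and 2 in the Cd3g stretch and is in 88.8% of all stretches. No match overlaps a match of another of the 3 capitalised motifs. A match is only a run of letters and was not measured as a bound site.

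Of the proteins that act next to the receptor, the adaptor Lat was high and the kinase Lck was low. Lck starts receptor signalling by phosphorylating the CD3 chains (Entrez 16818, chromosome 4, 129548344 to 129573641, minus strand). It had 1 and 58 reads in KO-named replicates 1 and 3, or 0.0747 and 3.40 CPM, against 110 and 213 reads in WT-named replicates 1 and 3, or 5.06 and 11.4 CPM. Both KO-named libraries lay below both WT-named ones, and KO-named replicate 1 held almost none. The log2 fold change was −2.24 (SE 2.14, edgeR adjusted p = 0.865). It ranged from −6.68 without KO-named replicate 3 to −1.27 without KO-named replicate 1, and it was −1.41 without WT-named replicate 3 and −2.71 without WT-named replicate 1.

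Lat is the membrane scaffold that Zap70 phosphorylates (Entrez 16797, chromosome 7, 126363827 to 126369705, minus strand). It had 148 and 115 CPM in KO-named replicates 1 and 3, against 156 and 103 CPM in WT-named replicates 1 and 3. The groups overlapped, with the 2 KO-named values between the 2 WT-named ones. The log2 fold change was 0.02 (SE 0.67, edgeR adjusted p = 0.995), and it lay between −0.33, under scaling by library size alone, and 0.32, without WT-named replicate 1. In CPM per kilobase, Lat was 3499 and 59.5 times Lck in KO-named replicates 1 and 3, the first of them resting on a single Lck read, and 54.4 and 16.0 times in WT-named replicates 1 and 3. Mast cells also use Lat, below their IgE receptor, and mast cell genes summed to between 7082 and 10953 CPM in the 4 libraries. Their part in the level of Lat was not tested.

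Ikzf2 encodes Helios, a zinc finger transcription factor of the Ikaros family best known from regulatory T cells (Entrez 22779, chromosome 1, 69531207 to 69687351, minus strand). It had 110 and 102 CPM in KO-named replicates 1 and 3, against 94.3 and 240 CPM in WT-named replicates 1 and 3. WT-named replicate 3 was the highest and the other 3 libraries lay between 94.3 and 110 CPM, so the groups overlapped, which they did not under scaling by library size alone. The log2 fold change was −0.65 (SE 0.70, edgeR adjusted p = 0.878), and it was 0.24 without WT-named replicate 3. The difference between the KO-named libraries, 0.11 on the log2(CPM + 1) scale, was at the 6.81 percentile of that absolute difference over all genes tested.

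The other Ikaros family genes that were tested had fold changes above 0, also with library size alone. All 4 others had a row and 3 were tested. Ikzf1, which encodes Ikaros, had 385 and 382 CPM in KO-named replicates 1 and 3, against 254 and 288 CPM in WT-named replicates 1 and 3. For Ikzf3, which encodes Aiolos, the values were 380 and 417 CPM in the KO-named and 262 and 363 CPM in the WT-named libraries. Ikzf5 had 98.4 and 60.0 CPM in the KO-named and 54.0 and 23.1 CPM in the WT-named libraries. For each of the 3, the lower KO-named value exceeded the higher WT-named one, as for 17.8% of all genes tested, and the median log2 fold change was 0.50 beside 0.05 for all genes tested. With library size alone the groups stayed apart for Ikzf1 and overlapped for Ikzf3 and Ikzf5, and the medians were 0.18 and −0.28. The edgeR adjusted p was 0.847 for Ikzf1, 0.905 for Ikzf3 and 0.870 for Ikzf5. Ikzf4 had 4, 2, 0 and 1 reads in KO-named replicates 1 and 3 and WT-named replicates 1 and 3 and was not tested.

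Klrb1b encodes an inhibitory lectin-like receptor of the NK1.1 family, whose ligand is encoded by Clec2d (Entrez 80782, chromosome 6, 128813706 to 128826315, minus strand). It had 10.5 and 45.5 CPM in KO-named replicates 1 and 3, against 60.1 and 85.1 CPM in WT-named replicates 1 and 3. Both KO-named libraries lay below both WT-named ones. The log2 fold change was −1.37 (SE 1.21, edgeR adjusted p = 0.847), and it was −0.67 without KO-named replicate 1 and −2.81 without KO-named replicate 3. Its level is uncertain where reads could be shared: the gene overlaps Gm44511 on the same strand, which matches 678 bases of its longest transcript at 99.0% identity, and 460 bases match Klrb1a at 90.7%.

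The ligand gene Clec2d, the only tested member of 10 listed Klrb1 family and ligand genes, had 4 and 4 reads in KO-named replicates 1 and 3, against 81 and 241 reads in WT-named replicates 1 and 3. Its log2 fold change was −4.93 (SE 2.12, edgeR adjusted p = 0.489). Clec2e had 1, 1, 1 and 3 reads, and the other 8 genes of that list were not analysed here.

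Thy1 encodes the CD90 surface glycoprotein of T cells and innate lymphoid cells, which fibroblasts also carry (Entrez 21838, chromosome 9, 44043384 to 44048579, plus strand). It had 140 and 44.8 CPM in KO-named replicates 1 and 3, against 9.19 and 30.3 CPM in WT-named replicates 1 and 3. The lower KO-named value exceeded the higher WT-named one, and the KO-named libraries were themselves 1.62 apart on the log2(CPM + 1) scale. The log2 fold change was 2.23 (SE 1.20, edgeR adjusted p = 0.626), between 1.19 without KO-named replicate 1 and 3.37 without WT-named replicate 3, and it was 1.58 without WT-named replicate 1. The summed stromal markers were highest in the library with the highest Thy1. The 3 of 11 with a row summed to 824 and 0.469 CPM in KO-named replicates 1 and 3 and to 7.67 and 2.68 CPM in WT-named replicates 1 and 3. Gsn made up 599 CPM and Col1a2 225 CPM of that sum in KO-named replicate 1. Pdgfrb did not follow them and was highest in WT-named replicate 3. It had 0.224 and 0.352 CPM in KO-named replicates 1 and 3, against 0.0919 and 2.09 CPM in WT-named replicates 1 and 3. KO-named replicate 3 had the lowest stromal sum and the second highest Thy1. The part of stromal cells in the level of Thy1 was not tested.

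**Figure D2:**
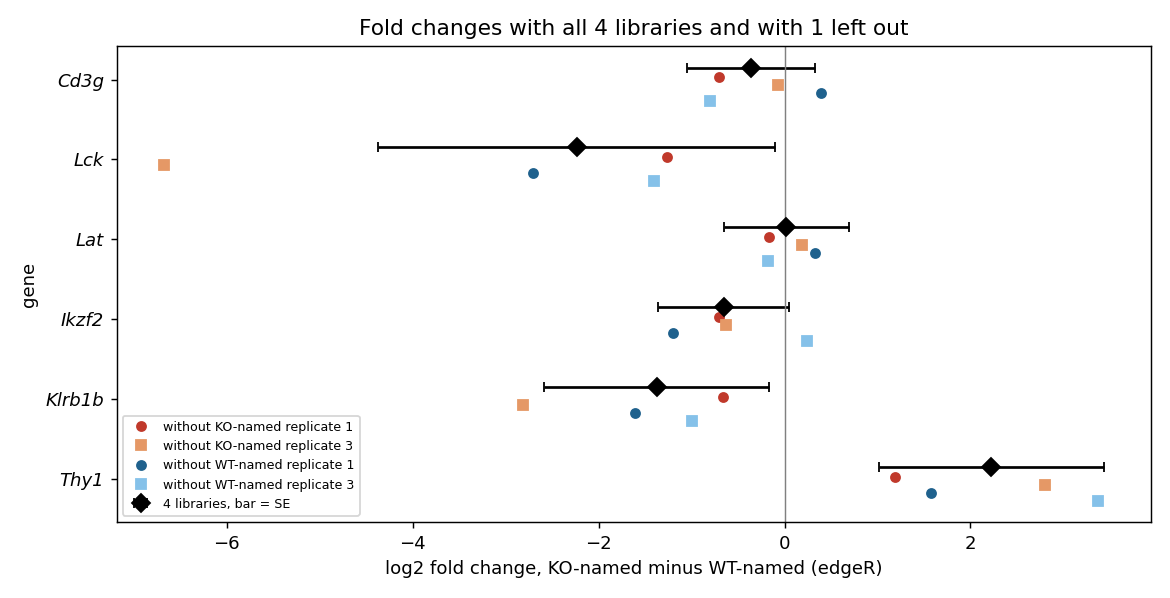
Log2 fold change of 6 genes, KO-named minus WT-named, by edgeR (horizontal axis). Diamonds use all 4 libraries with SE bars, and coloured symbols leave out 1 library. Cd3e is not drawn because a fitted fold against a group without reads depends on the prior count. Lck, Klrb1b and Thy1 keep their side of 0 whichever library is left out, while Cd3g, Lat and Ikzf2 do not.

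The 7 genes did not share 1 pattern across libraries. Likeness was measured as the Euclidean distance between log2(CPM + 1) values centred on each gene's mean over the 4 libraries. Lck and Klrb1b lay at a distance of 0.52, and Klrb1b ranked 26th of 8752 genes in likeness to Lck and Lck 51st in likeness to Klrb1b. Cd3g and Lat lay at 0.60, and Lat ranked 121st in likeness to Cd3g and Cd3g 402nd in likeness to Lat. In likeness to Cd3e, Lck ranked 808th, Klrb1b 1062nd, Ikzf2 1910th, Cd3g 3375th, Lat 3601st and Thy1 7993rd.

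Within a similar level, from 0.5 to 2 times the mean CPM, the genes most like Cd3e were Dnajc4 and Timm10, at distances of 0.037 and 0.19. Those most like Lck were Leo1 and Pxn, and those most like Klrb1b were Oxr1 and Brix1. Cd3g was closest to D17H6S56E-5 and Pdlim1, Lat to Cct2 and Ramp1, Ikzf2 to Pcm1 and Hadhb, and Thy1 to Gid4 and Cyb5r4. With 4 libraries and between 1434 and 2866 candidate genes each, close matches arise easily, and these names describe the libraries alone.

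Genes of the signalling pathway below the T cell receptor were expressed throughout, and as a list they did not separate the groups. Of 40 genes, 36 had a row and all 36 were tested. None passed edgeR over all genes in either direction. Their median log2 fold change was −0.21 beside 0.05 for all genes tested, with 20 of 36 below 0 (55.6%) beside 48.6% of all. Both KO-named libraries lay below both WT-named ones in 7 (19.4%) and above them in 5 (13.9%), beside 22.1% and 17.8% of all genes.

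Among the highest expressed were Ptprc, Lcp2, Sla, Skap1 and Fyb. Ptprc, the CD45 phosphatase that activates Lck, had 1479 and 1982 CPM in KO-named replicates 1 and 3, against 1929 and 2187 CPM in WT-named replicates 1 and 3. Lcp2, the SLP-76 adaptor that Lat recruits, had 868 and 594 CPM in the KO-named and 493 and 606 CPM in the WT-named libraries. The groups overlapped for Ptprc and for Lcp2.

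Sla, an adaptor that dampens receptor levels, had 254 and 493 CPM in the KO-named and 495 and 458 CPM in the WT-named libraries. Skap1 and Fyb encode adaptors that link the receptor to integrins. Skap1 had 331 and 188 CPM in the KO-named and 224 and 245 CPM in the WT-named libraries. Fyb had 380 and 194 CPM in the KO-named and 161 and 128 CPM in the WT-named libraries. For Fyb both KO-named libraries were above both WT-named ones (log2 fold change 0.99, SE 0.56, edgeR adjusted p = 0.643), but not with library size alone.

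The following 3 pathway genes were chosen after their values were seen, because they act beside the CD3 chains or share the pattern of Cd3e. Zap70, the kinase that docks on phosphorylated CD3 chains, had 82.0 and 16.9 CPM in KO-named replicates 1 and 3, against 75.3 and 38.1 CPM in WT-named replicates 1 and 3, with overlap. Fyn, the Src family kinase next to Lck, had 48.7 and 81.1 CPM in the KO-named and 116 and 67.6 CPM in the WT-named libraries, so per kilobase it was above Lck in every library, by at least 3.63 times. Ptpn6, the SHP-1 phosphatase that restrains receptor signalling, had no read in either KO-named library, against 28.5 and 12.2 CPM in WT-named replicates 1 and 3. Set against 3 counts over the group it was lower by at least 213-fold, again for counting error only. The bounds were 119-fold, 93.7-fold, 124-fold and 290-fold on leaving out KO-named replicate 1, KO-named replicate 3, WT-named replicate 1 and WT-named replicate 3. Its adjusted p was 0.433 by edgeR, 0.000693 by DESeq2 and 0.011 by limma-voom. Because Ptpn6 was picked with this pattern in view, its bounds and p-values describe the gene and are no test of it.

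**Figure D3:**
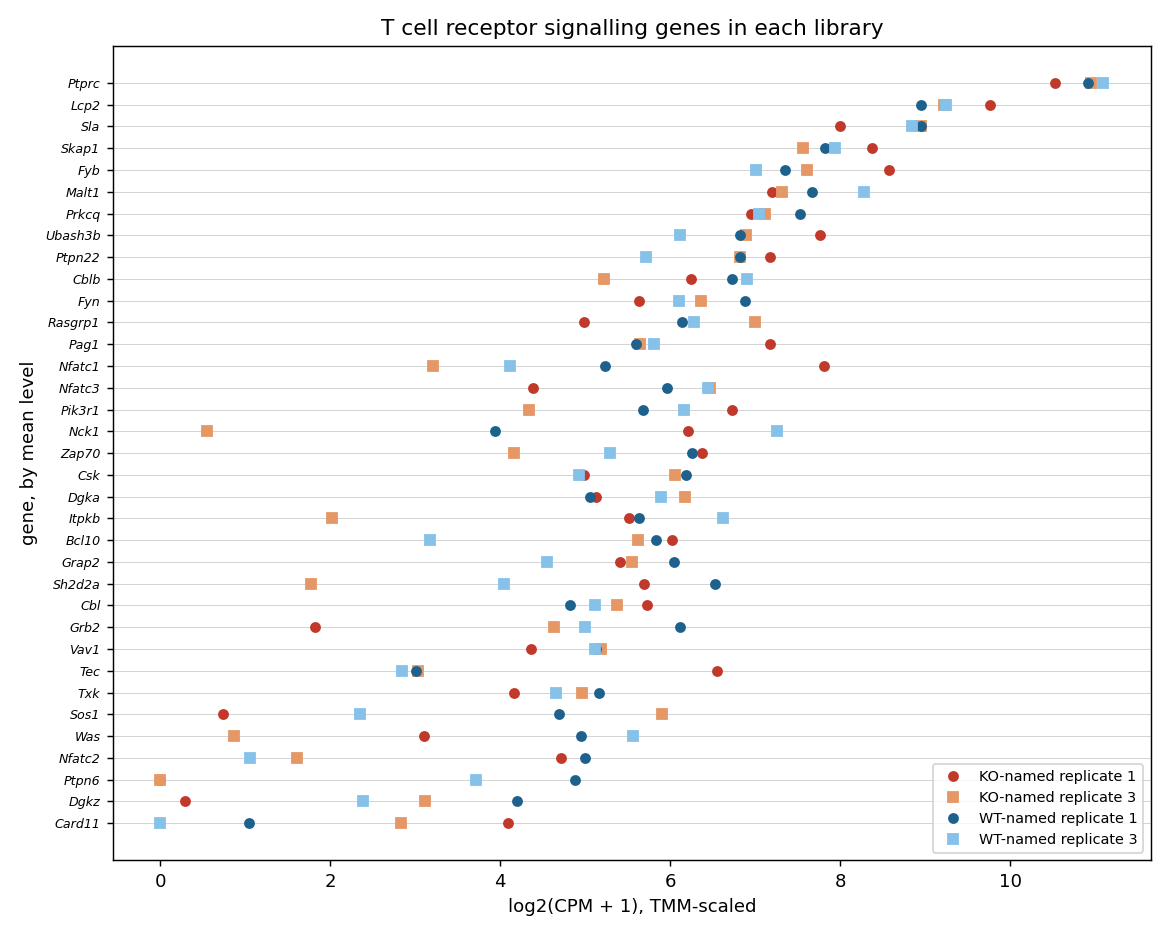
Level of the T cell receptor signalling genes reported here, as log2(CPM + 1) (horizontal axis), ordered by mean level, in the 2 KO-named and 2 WT-named libraries. Ptprc is the highest of the genes drawn in each of the 4 libraries. Libraries of 1 group can be far apart, as for Nck1 at 72.8 and 0.469 CPM in the KO-named and 14.4 and 152 CPM in the WT-named ones. Both KO-named symbols of Ptpn6 lie at 0.

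Few of the listed T cell markers had a row. In CPM, not scaled for transcript length, those that did summed to less than Cd3g alone in every library. The margin was narrow in WT-named replicate 3, at 93.9 against 97.5 CPM. Of 18 genes for receptor chains, coreceptors and T cell regulators, 5 had a row and 13, among them the receptor constant regions, Cd4 and Cd8a, were not analysed here. The 5 summed to 39.8 and 60.5 CPM in KO-named replicates 1 and 3, against 60.0 and 93.9 CPM in WT-named replicates 1 and 3. The 4 tested had a median log2 fold change of −2.16 beside 0.05 for all genes tested, with 3 below 0, and none passed edgeR. The median was −0.59 without WT-named replicate 1. None of the 5 was at 0 reads in any library.

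Trat1, which encodes a protein that steadies the receptor at the surface, had 1.42 and 1.53 CPM in KO-named replicates 1 and 3, against 12.5 and 23.2 CPM in WT-named replicates 1 and 3. As with Cd3e and Lck, its KO-named values lay below the WT-named ones (log2 fold change −3.59, SE 2.11, edgeR adjusted p = 0.669). Themis, a regulator of thymocyte selection, had 34.1 and 48.9 CPM in the KO-named and 2.30 and 62.0 CPM in the WT-named libraries. Cd28, the costimulatory receptor, had 0.224 and 9.15 CPM in the KO-named and 30.9 and 7.03 CPM in the WT-named libraries. Lef1, a transcription factor of naive T cells, had 2.54 and 0.587 CPM in the KO-named and 14.0 and 1.56 CPM in the WT-named libraries. For Themis, Cd28 and Lef1 the groups overlapped. Cd8b1 had 21 and 5 reads in the KO-named and 6 and 3 reads in the WT-named libraries. The part of T cells in the levels of Cd3e and Lck was not tested.

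Markers of NK cells and ILC1 were led by genes that other lymphocytes share. Of 30 genes 10 had a row and 7 were tested, with a median log2 fold change of −1.38, 6 of 7 below 0, and 2 of 7 (28.6%) with both KO-named libraries below both WT-named ones, beside 48.6% and 22.1% of all genes tested. The median was −0.64 without KO-named replicate 1, −0.76 without WT-named replicate 3 and −3.99 without KO-named replicate 3. None passed edgeR. The 10 summed to 654 and 375 CPM in KO-named replicates 1 and 3 and to 554 and 515 CPM in WT-named replicates 1 and 3. Il2rb, the shared receptor chain for interleukin-2 and interleukin-15, had 544 and 185 CPM in the KO-named and 310 and 272 CPM in the WT-named libraries. Gzmb, the protease granzyme B, had 106 and 136 CPM in the KO-named and 178 and 84.7 CPM in the WT-named libraries. These 2 genes held most of the sum in every library, and the groups overlapped in both.

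The genes more particular to NK cells included several near 0, of which Eomes and Klra3 were chosen after their values were seen. Nkg7, Fcgr3 and Tyrobp of the same list, also chosen in this way, were higher in some libraries. Nkg7 had 0.0747 and 15.4 CPM in KO-named replicates 1 and 3, against 14.3 and 25.9 CPM in WT-named replicates 1 and 3. Fcgr3 had 2.24 and 0.117 CPM in the KO-named and 8.73 and 39.8 CPM in the WT-named libraries. Tyrobp had 0.448 and 6.98 CPM in the KO-named and 12.6 and 1.93 CPM in the WT-named libraries. Eomes, a transcription factor of NK cells, had 2 and 2 reads in KO-named replicates 1 and 3 and 0 and 1 reads in WT-named replicates 1 and 3. Klra3, a receptor of the Ly49 family, had 2 and 3 reads in the KO-named and 1 and 0 reads in the WT-named libraries. Itga2, the CD49b integrin, had 0.224 and 11.8 CPM in the KO-named and 30.0 and 25.8 CPM in the WT-named libraries, with the KO-named values below (log2 fold change −2.21, SE 2.12, edgeR adjusted p = 0.866). Styk1 had 1 and 320 reads in KO-named replicates 1 and 3 and 1 and 1183 reads in WT-named replicates 1 and 3, so the libraries numbered 3 held nearly all of it in both groups. The part of NK cells in the level of Klrb1b was not tested.

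**Figure D4:**
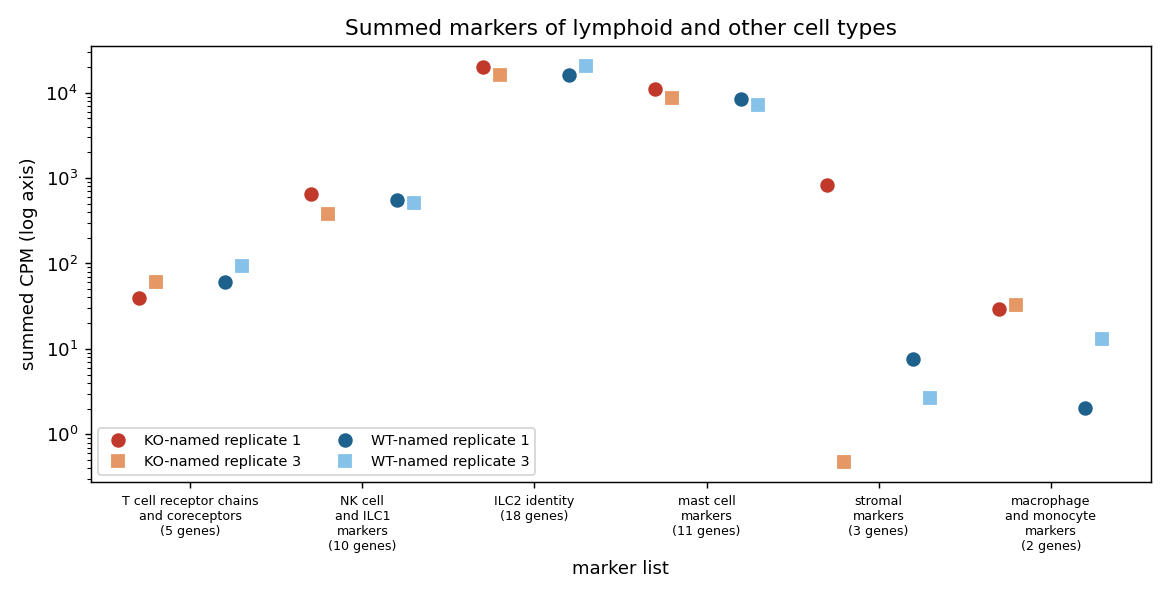
Summed CPM (log axis) of the marker genes with a row in each list, in the 2 KO-named and 2 WT-named libraries. ILC2 and mast cell genes lead in all 4, T cell genes stay between 39.8 and 93.9 CPM, and stromal genes reach 824 CPM in KO-named replicate 1 and at most 7.67 CPM elsewhere.

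Lists of other cell types are given by their highest members. Of the ILC2 identity genes, 18 were tested with a median log2 fold change of 0.02 and 9 below 0. Rora and Id2, transcription factors of the lineage, Il1rl1, the interleukin-33 receptor, and Il7r, the interleukin-7 receptor, led that list, and their groups overlapped. Of the mast cell genes, 11 were tested with a median of 0.06 and 4 below 0, led by the proteases Cpa3 and Cma1, the stem cell factor receptor Kit and the histamine-forming enzyme Hdc. The macrophage markers Cd68 and Adgre1 summed to 29.3 and 32.7 CPM in KO-named replicates 1 and 3, against 2.02 and 13.0 CPM in WT-named replicates 1 and 3.

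KO-named replicate 1 stood lowest of the 4 libraries in Lck and Klrb1b, and highest in Thy1 and in the stromal sum. Across all genes tested the median absolute difference between replicates on the log2(CPM + 1) scale was 1.19 in the KO-named and 0.86 in the WT-named pair. Lck and Klrb1b exceeded it in the KO-named pair, at 2.03 and 2.02, and Lat was below it in both pairs, at 0.36 and 0.59. Cd3g was below it in the KO-named pair, at 0.64, and above it in the WT-named pair, at 1.27.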

How the data were processed

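The protocols in the labels describe sorted adipose ILC2, Trizol extraction and a Smart mRNA-seq library kit. The submitters' processing notes name mm10; the aligner, the counter and strandedness are unknown here. The authors deposited estimated counts per gene, 20.0% to 21.6% of them not whole in a given library, and these were rounded. A log2 fold change, p-value and q-value from the authors' DESeq2 comparison stand in the same deposited table, per its file headers. The other 12 columns of values per library were not used, since their numbering does not match the labels throughout.

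Columns numbered 1 were matched to a sample by library name. Those numbered 3 were matched to a group alone, since no library name carries that number. Testing used edgeR's quasi-likelihood fit (edgeR 4.0.16, R 4.3.3) with TMM scaling, filterByExpr and Benjamini-Hochberg adjustment over all genes at 0.05, checked on simulated data. The SE is the size of the log2 fold change divided by the square root of F. Alternatives used DESeq2 1.42.0, limma-voom (limma 3.58.1), RLE factors, library size alone, no filter, a replicate block, and each library left out. Gene positions are those of RefSeq on GRCm38.p6. Transcript lengths, matched by symbol for 97.1% of genes, come from GENCODE on the same assembly, and transcript similarity from blastn 2.17.0, keeping matches of at least 100 bases and 90% identity. The sum of CD3 chains covers Cd3e and Cd3g.

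Named genes are the 9 members, up to 4 passing genes of each list or else its 4 highest (6 for receptor signalling), and the 2 genes most like each member. Any other gene was picked with its values in view. Some listed genes that this rule names are not reported here, though list counts include them. The members and lists were chosen with earlier results of these data known.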

Additional observations from a re-analysis of the deposited data

How the results depend on the processing

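Genes passing an adjusted p of 0.05 numbered 0 with edgeR on all 4 libraries, also with RLE factors, with library size alone and without the filter. They numbered 368 with DESeq2 (94 up and 274 down in KO-named cells), 201 with limma-voom and 952 with DESeq2 on all genes with a row, an alternative chosen after seeing the data. Of the 7 T and NK lineage genes these 3 fits each called 1, Cd3e. With 1 library left out edgeR called between 0 and 7 genes and none of the 7. With the column number as a replicate block it called 25 genes and none of the 7. The deviations of KO-named and WT-named libraries with the same number correlated at −0.0015 over 8753 genes. Whether libraries of the same number were prepared together is not known, and this correlation cannot settle it. Of 77 alternative fold changes of the 7 genes 6 changed sign. Lat was at −0.33 with library size alone and −0.083 without the filter, and ran between −0.18 and 0.32 with 1 library left out. By the same leave-one-out Cd3g ran between −0.80 and 0.39 and Ikzf2 between −1.20 and 0.24. The log2 ratio of the summed CD3 chains was −0.44 and ran between −0.90 and 0.25 with 1 library left out. Of 66 alternative list medians 19 moved by more than the replicate spread; receptor signalling was at −0.57 with library size alone, where the median of all genes was −0.28. The causes were not tested. A library at 0 reads limits a level only to 3 counts.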

Other observations

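The authors' deposited table gives DESeq2 fold changes under the heading WT-vs-KO. Their sign matched the log2 ratio of mean CPM, KO-named over WT-named, in 81.8% of 10366 genes, and the size differed by over 0.5 in 47.3%. In the authors' deposited table Cd3e had a log2 fold change of −8.37 with a q-value of 3.65e-05, where 4.17% of 10940 genes had a q-value under 0.05. For Thy1 the authors' deposited table gives 0.81, whereas the CPM ratio is 2.23. For Lck the authors' deposited table gives −0.55, whereas the CPM ratio is −2.24. For Klrb1b the authors' deposited table gives −1.93, whereas the CPM ratio is −1.37. The sign itself differs for Cd3g, at 0.058 in the authors' deposited table and −0.36 for the CPM ratio. Which samples entered the authors' comparison is not stated in the file.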
